A study of Caenorhabditis elegans with 2 samples.

Results

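Head-to-head promoter regions of the autosomes are the stretches of genome in Caenorhabditis elegans where a gene read leftward and a gene read rightward begin close to each other, so that 1 bound region lies upstream of both. They were taken from the relaxed list of LSY-27 regions that the authors pooled over their replicates. A region was a member where its summit, the position of highest signal, fell into the start windows of at least 1 plus-strand and at least 1 minus-strand protein-coding gene, a window reaching 1000 bp before the gene's annotated 5′ end and 200 bp past it. The summit also had to lie more than 500 bp from any tRNA, snRNA, snoRNA, miRNA or piRNA gene. The rule used positions only and no signal value. It found 1227 members among the 30000 pooled regions, or 4.09%, which fell on 1055 different gene pairs and 2094 genes.

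The study measured where LSY-27 sits on the genome by ChIP-seq, in which DNA fragments bound to a protein are pulled down with an antibody and sequenced. All samples came from 1 group, whole young adult hermaphrodites of the transgenic strain OP401, in which a GFP-FLAG tag is fused to the C-terminal end of LSY-27. The group holds 2 biological replicates, numbered 2 and 3, and an anti-GFP antibody was used according to the labels' description, while the antibody field names lsy-27. Whole animals were used, so germline, gut, muscle and neurons cannot be told apart, and the age in hours, the tagged protein's expression pattern and a comparison with untagged animals were not analysed here.

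LSY-27 is a zinc finger protein named after mutants in which the ASE pair of taste neurons loses its difference between left and right. In C. elegans many genes lie in this divergent arrangement, and a promoter between 2 starts can drive transcription both ways. The messages of most worm genes also receive a spliced leader: the first stretch of the primary transcript is cut off at an acceptor ending in the letters TTTCAG and is replaced by a short RNA. Annotated 5′ ends therefore often mark this acceptor or the start codon rather than the place where transcription began. In these data 22.4% of the members' genes had TTTCAG directly before their annotated start, against 13.5% of all 17241 autosomal protein-coding genes, and the share was 31.9% for the 94 genes of the strongest members described next.

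The strongest members are shown as sequence because they let the arrangement be seen directly. The authors also deposited a thresholded list of 342 regions, each of which is an entry of the pooled list, and 47 members were in it. The intervals below are those between the 2 annotated starts of 5 of the 7 thresholded pairs whose starts lie up to 300 bp apart, on the plus strand of the WBcel235 assembly (ce11). The leftward gene starts just before the first letter and the rightward gene just after the last. Capitals mark 11 bases centred on the summit. The remaining pairs of this kind, let-630/hcp-6 and C55B7.11/glh-2, are not printed. Y71H2AM.20 and cox-6B, which encodes a subunit of cytochrome c oxidase, frame chrIII:2785949-2786201. The leftward gene tiar-1, for an RNA-binding protein, and lelo-4 frame chrII:5714824-5714923, where the summit lay beyond the interval and no base is in capitals. The nuclear Argonaute gene hrde-1 and C16C10.13 frame chrIII:4176160-4176439. The pair hpo-9 and hyls-1, the latter a centriole gene, frames chrV:7237131-7237380, and rbmx-2 with C30B5.2 frames chrII:6196949-6197179.
Y71H2AM.20/cox-6B: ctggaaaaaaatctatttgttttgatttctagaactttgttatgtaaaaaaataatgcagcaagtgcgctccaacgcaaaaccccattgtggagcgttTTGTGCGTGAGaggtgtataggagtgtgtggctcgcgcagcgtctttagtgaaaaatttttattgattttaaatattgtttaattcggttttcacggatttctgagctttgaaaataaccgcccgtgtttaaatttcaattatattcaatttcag
tiar-1/lelo-4: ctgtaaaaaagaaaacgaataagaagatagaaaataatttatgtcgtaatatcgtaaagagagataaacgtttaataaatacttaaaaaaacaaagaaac
hrde-1/C16C10.13: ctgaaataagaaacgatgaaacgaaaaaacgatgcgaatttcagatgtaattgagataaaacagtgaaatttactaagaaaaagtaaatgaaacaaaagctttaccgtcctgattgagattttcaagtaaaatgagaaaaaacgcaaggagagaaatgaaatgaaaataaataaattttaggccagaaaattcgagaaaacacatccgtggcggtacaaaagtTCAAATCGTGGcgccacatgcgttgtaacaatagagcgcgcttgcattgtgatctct
hpo-9/hyls-1: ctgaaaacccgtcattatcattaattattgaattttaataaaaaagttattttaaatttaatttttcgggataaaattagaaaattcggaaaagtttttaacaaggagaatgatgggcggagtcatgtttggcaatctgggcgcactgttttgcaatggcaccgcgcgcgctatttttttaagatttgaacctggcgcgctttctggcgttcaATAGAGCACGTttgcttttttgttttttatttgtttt
rbmx-2/C30B5.2: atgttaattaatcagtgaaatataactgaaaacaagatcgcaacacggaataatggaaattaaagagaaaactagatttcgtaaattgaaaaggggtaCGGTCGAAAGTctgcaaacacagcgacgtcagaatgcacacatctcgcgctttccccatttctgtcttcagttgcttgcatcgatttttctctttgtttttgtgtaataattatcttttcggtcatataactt

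The interval of cox-6B ends in the acceptor letters tttcag at the rightward start, and 4 of the 5 intervals begin with ctg, the reverse complement of an acceptor's cag, at the leftward start. Each interval as a whole held 22 to 35.5% G and C.

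The summits of the 6 strongest other members, chosen after their values were seen, are shown as windows reaching 50 bp to either side of the summit, where capitals mark matches to the 6 short motifs named further on. The windows are chrIII:13643689-13643789 for drr-2 and set-16, chrIII:5018295-5018395 for larp-1 and wip-1, chrIV:1094350-1094450 for cct-8 and Y55F3AR.2, chrIII:4475601-4475701 for ifet-1 and rps-3A, chrIII:7891947-7892047 for ZK688.5 and fahd-1, and chrIV:4749989-4750089 for rpl-18A and Y17G9B.5.
drr-2/set-16: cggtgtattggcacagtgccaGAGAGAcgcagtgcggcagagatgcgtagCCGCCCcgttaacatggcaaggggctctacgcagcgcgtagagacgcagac
larp-1/wip-1: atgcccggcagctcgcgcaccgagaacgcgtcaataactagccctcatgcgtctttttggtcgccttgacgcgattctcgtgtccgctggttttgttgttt
cct-8/Y55F3AR.2: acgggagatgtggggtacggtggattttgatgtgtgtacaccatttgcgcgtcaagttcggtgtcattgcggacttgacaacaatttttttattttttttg
ifet-1/rps-3A: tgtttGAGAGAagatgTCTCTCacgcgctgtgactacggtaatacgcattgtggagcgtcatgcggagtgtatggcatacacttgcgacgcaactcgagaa
ZK688.5/fahd-1: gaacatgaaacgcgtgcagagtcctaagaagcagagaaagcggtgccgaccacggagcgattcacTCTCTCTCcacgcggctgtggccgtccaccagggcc
rpl-18A/Y17G9B.5: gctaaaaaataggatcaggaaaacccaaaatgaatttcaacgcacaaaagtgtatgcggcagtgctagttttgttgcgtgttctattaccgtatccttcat

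These windows held 38.6 to 62.4% G and C. The window of drr-2 and set-16 carried GAGAGA once and, nearer the summit, CCGCCC once. That of ifet-1 and rps-3A carried GAGAGA and, as its reverse complement, TCTCTC. That of ZK688.5 and fahd-1 carried overlapping TCTCTC matches. The other 3 windows carried none of the motifs.

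Signal values are given as deposited, in the authors' units, and each list has its own scale; how they were scaled is not given in the sources used here. Members ran from 2.98 to 37.9 with a median of 6.7, and 10.6 marked the upper quartile. The 5861 autosomal regions near starts of 1 direction only, called one-direction regions here, had a median of 5.05, and the 16214 autosomal regions near no start had 4.59. In the list called on replicate 2 alone, the 656 head-to-head regions had a median of 4, against 3.09 for one-direction regions. In the list of replicate 3 the 1132 head-to-head regions had 4.83 against 3.66. The ratio of medians was thus 1.33 in the pooled list, 1.29 in replicate 2 and 1.32 in replicate 3, so the higher level stood in each replicate by itself. With 1 group of samples no test between conditions was possible, and the agreement of the replicate lists is the only measure of error.

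Of the 1227 members, 47 were thresholded, or 3.83% (95% exact Clopper-Pearson interval 2.83 to 5.06%), where 1.14% of all pooled regions were. The share was 0.819% (0.604 to 1.08%) among one-direction regions and 0.117% (0.0706 to 0.183%) among regions near no start. It was higher than in members among the 1948 autosomal regions near a short non-coding gene, 6.78% (5.7 to 7.98%). These intervals cover counting error only, and 334 members shared a gene pair with another member. The strongest 342 regions of the pooled list by signal held the same numbers: 47 head-to-head, 48 one-direction and 19 near no start. The thresholded share therefore follows the pooled signal and is not a separate measure of it. The strongest 342 regions of each replicate list again held a larger share of head-to-head than of one-direction regions. In replicate 2 the shares were 7.93% and 2.17%, where 2.75% of the list was among its strongest 342 by construction. In replicate 3 they were 3.62% and 1.02%, where 1.17% was. On the X chromosome only 42 head-to-head regions were found, and 0 of 42 were thresholded, for which the exact interval reaches 8.41%. Their median signal was 5.02.

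A region of replicate 2 overlapped 48.3% of members, a region of replicate 3 overlapped 78.5%, and both did for 37.7%, against 28%, 66.3% and 15.7% of all pooled regions. Among the 462 members present in both, Spearman's rho between the replicates' signals was 0.17. For the 1066 one-direction regions present in both it was 0.26. For the 46 thresholded members present in both it was -0.19, so the replicates did not order the strongest members alike. The replicates' summits lay a median of 85 bp apart for the members in both and 35 bp apart for the thresholded ones.

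The highest pooled member lay between drr-2, whose product resembles the translation factor eIF4H, and set-16, a histone H3 lysine 4 methyltransferase of the MLL type. Its signal was 37.9 in the pooled list, 15.6 in replicate 2 and 24 in replicate 3, and it held rank 58 of the pooled list, whose strongest entries belonged to other classes of region. The summit lay 169 bp from the start of drr-2 and 177 bp from that of set-16, close to the midpoint. The next, between larp-1 (an RNA-binding protein of the La-related family) and wip-1 (an actin regulator), had 37.1, with 11.7 and 19.9 in the replicates. Both members ranked within the strongest 342 of each replicate list.

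Several of the strongest members lay beside a ribosomal protein or chaperonin gene. The pair of cct-8, a subunit of the cytosolic chaperonin, and the thioredoxin-domain gene Y55F3AR.2 had 36.4, with 7.74 in replicate 2 and 24.4 in replicate 3. The pair of ifet-1, a translational repressor, and the small-subunit ribosomal gene rps-3A had 35.7, with 17.2 and 19.1. The large-subunit ribosomal gene rpl-15 and its neighbour K11H12.8 had 32.9, with 13.1 and 13.4, at ranks 75 and 490 of the replicate lists. The pair of rpl-18A and Y17G9B.5 had 33.7 in the pooled list, but 2.93 and rank 6566 in replicate 2 against 30.3 and rank 41 in replicate 3. Its place among the strongest rests on replicate 3.

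Other strong members lay at mitochondrial, chromatin and secretory genes. The cox-6B member had 33.1, with 11.8 and 23.9 in the replicates, and the pair of ZK688.5 and fahd-1, a mitochondrial oxaloacetate tautomerase, had 34.2, with 15.6 and 19.1. The pair of wapl-1, which releases cohesin, and htz-1, the histone variant H2A.Z, had 30.3, with 8.18 and 17.8. The pair of sec-61.B, a subunit of the translocon of the endoplasmic reticulum, and trap-3, a subunit of the complex that accompanies it, had 30, with 9.88 and 23. The pair of lin-53, a histone-binding protein, and nra-2 had 28.9, with 8.31 and 19.5. The chromodomain gene mrg-1 and the signal peptidase gene spcs-2 had 28.4, with 13.8 and 12.4. The genes hsp-60 and Y22D7AL.10, which encode the mitochondrial chaperonin and its 10 kDa partner, begin 813 bp apart and had 27.5, with 9.42 and 17.6. The products of sec-61.B and trap-3 work side by side, as do those of hsp-60 and its partner, while mrg-1 and spcs-2 serve unrelated processes.

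**Figure D1:**
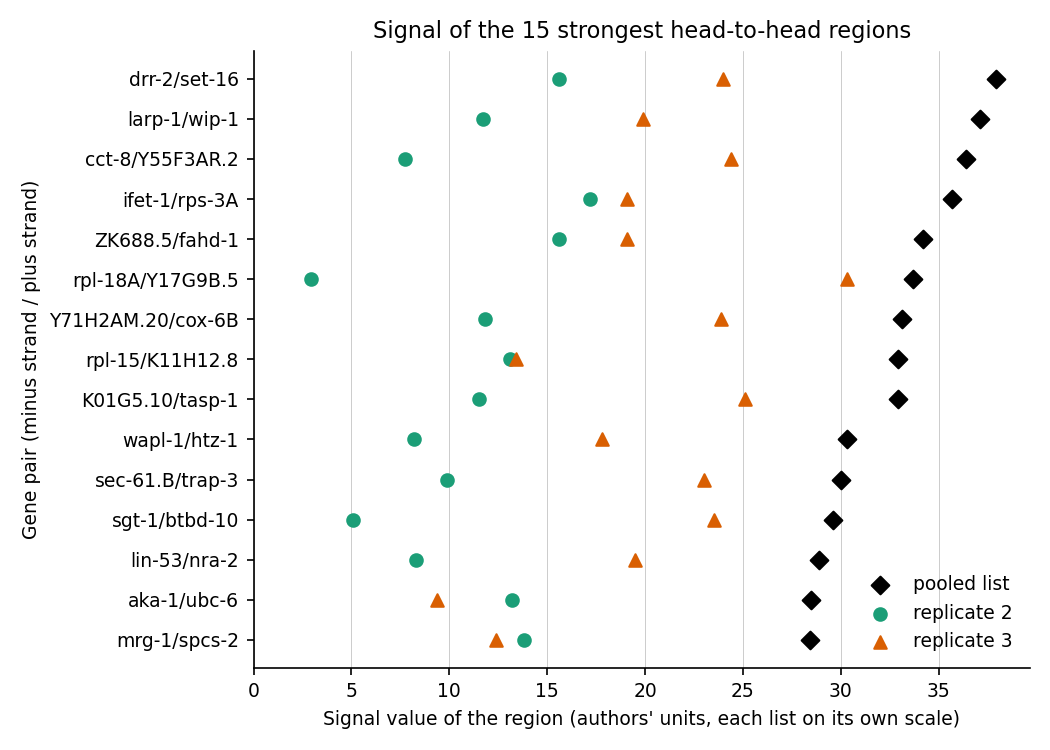
Signal of the 15 strongest head-to-head members that were thresholded and overlapped a region in both replicates, on the horizontal axis in the authors' units with each list on its own scale, 1 gene pair per row. Replicate 3 lies above replicate 2 in every row but those of aka-1/ubc-6 and mrg-1/spcs-2, and the gap is widest for rpl-18A/Y17G9B.5, 2.93 against 30.3.

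Over all 47 thresholded members the pooled signal ran from 22.3 to 37.9, and no other member exceeded 21.8. A region of replicate 3 overlapped all 47, with signals of 9.25 to 30.3, and a region of replicate 2 overlapped 46, with 2.93 to 17.2. The exception was E04F6.6/pcrg-1, with 27.8 in the pooled list and 26.4 in replicate 3. Of the 47, 27 were within the strongest 342 of replicate 2, 29 within those of replicate 3 and 13 within both. A thresholded member, aka-1/ubc-6, sat on repeated sequence: 34.3% of the 32-base words in its summit window were found once in the genome. Of all 1227 members, 1203 had at least 90% of such words unique and 7 had under 50%.

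Median signal and thresholded share of members differed among the chromosomes. Thresholded members made up 6.35% of the 252 on chromosome III and 5.05% of the 277 on chromosome I, against 3.29% of 213 on IV, 3.02% of 232 on II and 1.19% of 253 on V. These shares rest on 16, 14, 7, 7 and 3 regions in that order. The thresholded share of all regions on each chromosome was not computed, and the replicate lists were not read by chromosome. Median signal was highest on chromosome I, 7.52, and lowest on V, 6. One-direction regions varied less, between 4.82 on V and 5.21 on III.

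A head-to-head summit lies nearer to a start by geometry, a median of 148 bp from the nearest start against 316 bp for one-direction regions. The difference in signal was therefore read at matched distances. Within 49 bp of the nearest start the 213 members had a median of 6.66 and the 550 one-direction regions 5.07. From 200 to 299 bp the medians were 8.03 (194 members) and 5.33 (633 regions), the widest ratio, 1.51. From 500 to 1000 bp they were 5.32 (89 members) and 4.77 (2008 regions), a ratio of 1.11. Head-to-head medians were the higher at all 6 distances in the pooled list and in each replicate list, though at 500 to 1000 bp replicate 2 gave 3.09 against 2.99.

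**Figure D2:**
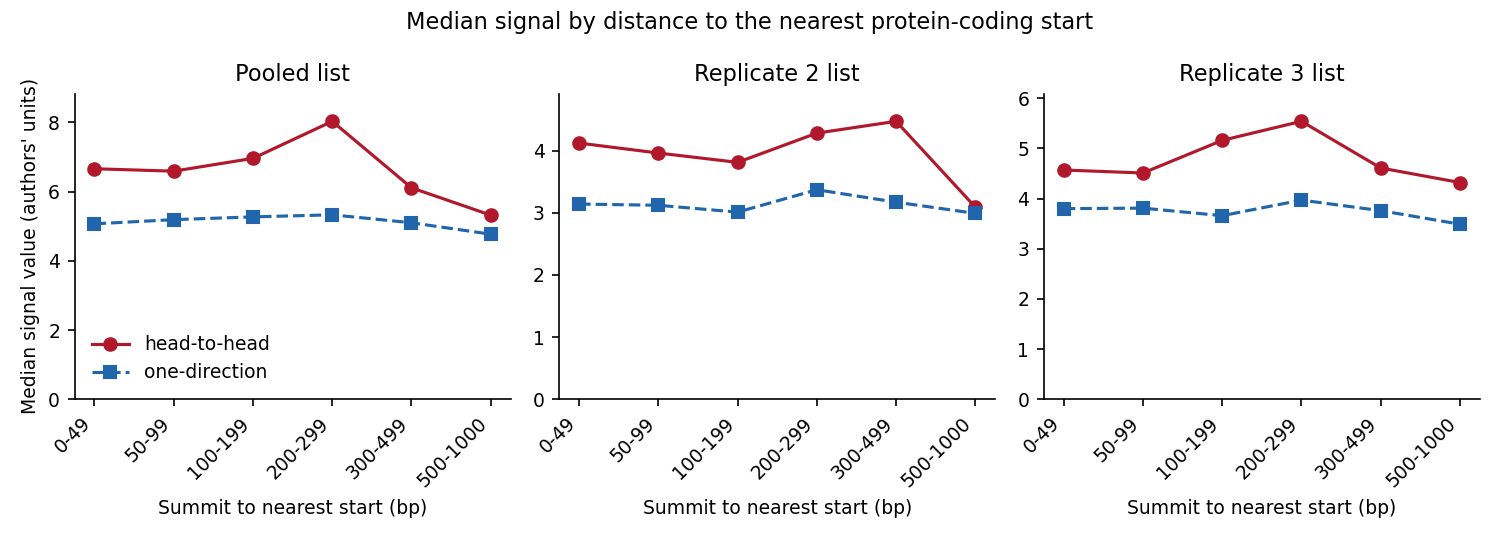
Median signal (vertical axis, authors' units) against the distance from summit to nearest protein-coding start (horizontal axis, bp), for head-to-head members and one-direction regions in the pooled list and in each replicate list. The head-to-head line lies above the other at every distance, with the pooled maximum of 8.03 at 200 to 299 bp.

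The starts of a member's pair were a median of 603 bp apart, with quartiles of 375 and 900 bp, and in 9 members the starts overlapped. Of the 1218 others, 987 summits (81%) lay between the starts and the rest lay just inside one of the genes. For pairs up to 1000 bp apart every position between the starts satisfied the rule, so place was read on those 992 members. There 761 summits (76.7%) lay between the starts. Of these 39.7% were in the central bin when the interval was divided into 3 equal bins, where an even spread would put 33.3%. Replicate 2 gave 41% and replicate 3 gave 40.5%.

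Stronger members lay nearer the middle. Of the members with starts up to 1000 bp apart, summits fell between the starts in 64.7% of those from the 307 members of lowest signal (2.98 to 4.46) and in 89.8% of those from the 307 of highest signal (10.6 to 37.9). The median distance from the midpoint was 192 bp in the first set and 88 bp in the second. Of the 44 thresholded members among them, 42 lay between the starts, a median of 75.2 bp from the midpoint. Divided into 5 equal bins, the central bin held 18.4% of the weakest members' summits between starts, 30.8% of the strongest members' and 40.5% of the thresholded ones (17 of 42), where an even spread would give 20%.

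**Figure D3:**
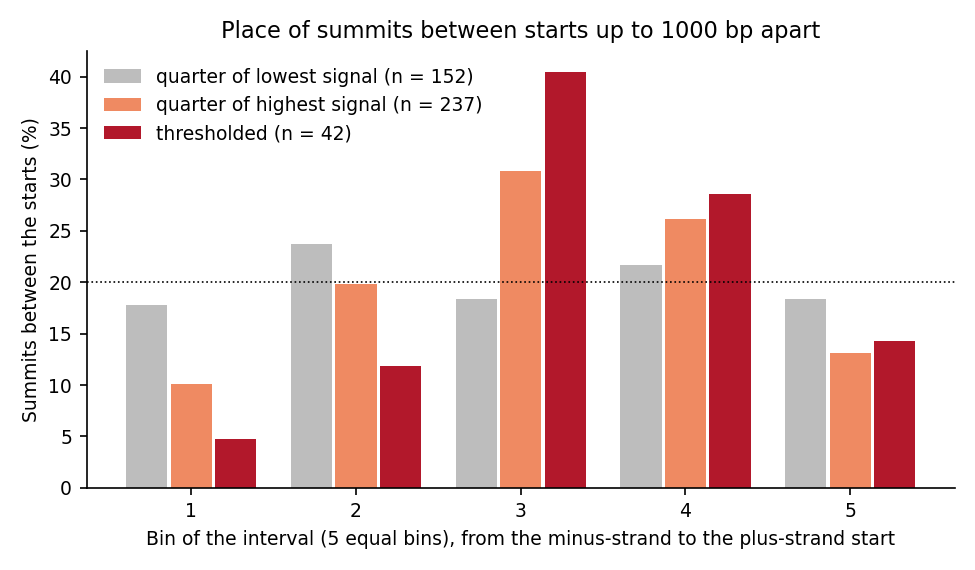
Share of summits between the starts (vertical axis, %) in 5 equal bins from the leftward gene's start to the rightward gene's start (horizontal axis), for pairs up to 1000 bp apart; the dotted line marks the 20% of an even spread. The weakest members are spread over all bins, while 40.5% of the thresholded summits are in bin 3 and 4.76% in bin 1.

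The same order held when place came first. Members of the central of 3 bins had a median signal of 8.27 and 23 of 302 were thresholded (7.62%). Members in the outer bins had 7.23 and 19 of 459 (4.14%). Members inside one of the genes had 5.38 and 2 of 231 (0.866%). In replicate 2 the medians were 4.9, 4.04 and 3.13, and in replicate 3 they were 5.86, 5.02 and 3.91. Both thresholded members inside a gene lay in coding sequence, at lelo-4 (27.6) and at mdt-26, a Mediator subunit gene (26.2), 84 and 79 bp past the annotated start.

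Distance between the starts itself had little relation to signal (Spearman's rho -0.10 over 1227 members, which share gene pairs). Starts 400 to 599 bp apart went with the highest median, 7.47, and starts 1200 to 2000 bp apart with 5.58. The thresholded members' median distance was 49 bp shorter than that of the other members, but the difference between the strongest 342 and the other head-to-head regions was -165 bp in replicate 2 and 10 bp in replicate 3, so its direction differed between the replicates.

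Seen from the annotation, 2267 autosomal pairs of neighbouring starts lay head to head up to 2000 bp apart and away from short non-coding genes. A member summit lay between the starts in 862 of them (38%), and a thresholded one in 45 (1.99%). The share was 16.4% for starts up to 199 bp apart, 43.5% at 200 to 399 bp, 50.1% at 400 to 599 bp and 45.9% at 800 to 1199 bp. It was 18.3% at 1200 to 2000 bp, where the rule admits only part of each interval. Shorter intervals also offer fewer positions for a summit. Per 1000 bp between the starts there were 1.24 members up to 199 bp and 1.5 at 200 to 399 bp. There were 1.08 at 400 to 599 bp and 0.562 at 800 to 1199 bp.

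The functions of the genes in such pairs were read through 32 lists built from gene symbols, which therefore hold no gene with a sequence name. A gene entered a list by its symbol alone, so a list can include genes of another function. The share of genes in annotated pairs that held a region was added after the lists' values had been seen. Of all 4534 autosomal genes in annotated head-to-head pairs, 38% had a member between the starts in the pooled list, 21.1% in replicate 2 and 34.5% in replicate 3. For cytosolic ribosomal protein genes the share was 34 of 39, or 87.2%, with 69.2% and 82.1% in the replicates. For oxidative phosphorylation it was 18 of 21 (85.7%), for nuclear pore and transport genes 22 of 26 (84.6%), for the proteasome 18 of 22 (81.8%) and for translation factors 22 of 27 (81.5%). All 5 lists stood above the share of all genes in each replicate, at 47.6 to 69.2% in replicate 2 and 50 to 82.1% in replicate 3.

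All 7 vacuolar ATPase genes in such pairs also had a member. Further lists stood above the 38% of all genes too. Among them were mitosis and cytoskeleton at 76.5%, cell cycle and replication at 73.7% and RNA polymerases and general transcription at 72%. Chromatin and Mediator genes had 70.5%, vesicle traffic 69.1% and chaperones 65.6%. The lists that follow had lower shares than these. Chemosensory receptor genes, which encode the receptors of sensory neurons, had a member in 39 of 279 (14%), with 8.96% and 16.5% in the replicates. F-box genes had 10 of 93 (10.8%), C-type lectins 10 of 75 (13.3%), cuticle collagens 5 of 32 (15.6%) and nuclear hormone receptors 10 of 43 (23.3%). Cytochrome P450 and phase II genes, at 14 of 39 (35.9%), lay near the share of all genes, and the small homeobox and muscle lists had 4 of 8 and 1 of 2. Major sperm protein genes had 0 of 21 in the pooled list and in replicate 2, and 9.52% in replicate 3. Histone genes had 8 of 63 (12.7%), but 40 of these 63 belonged to pairs whose midpoint window was under 50% unique, and the part of mappability in that share was not tested. Of the chemosensory genes 18 of 279 were in such pairs.

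**Figure D4:**
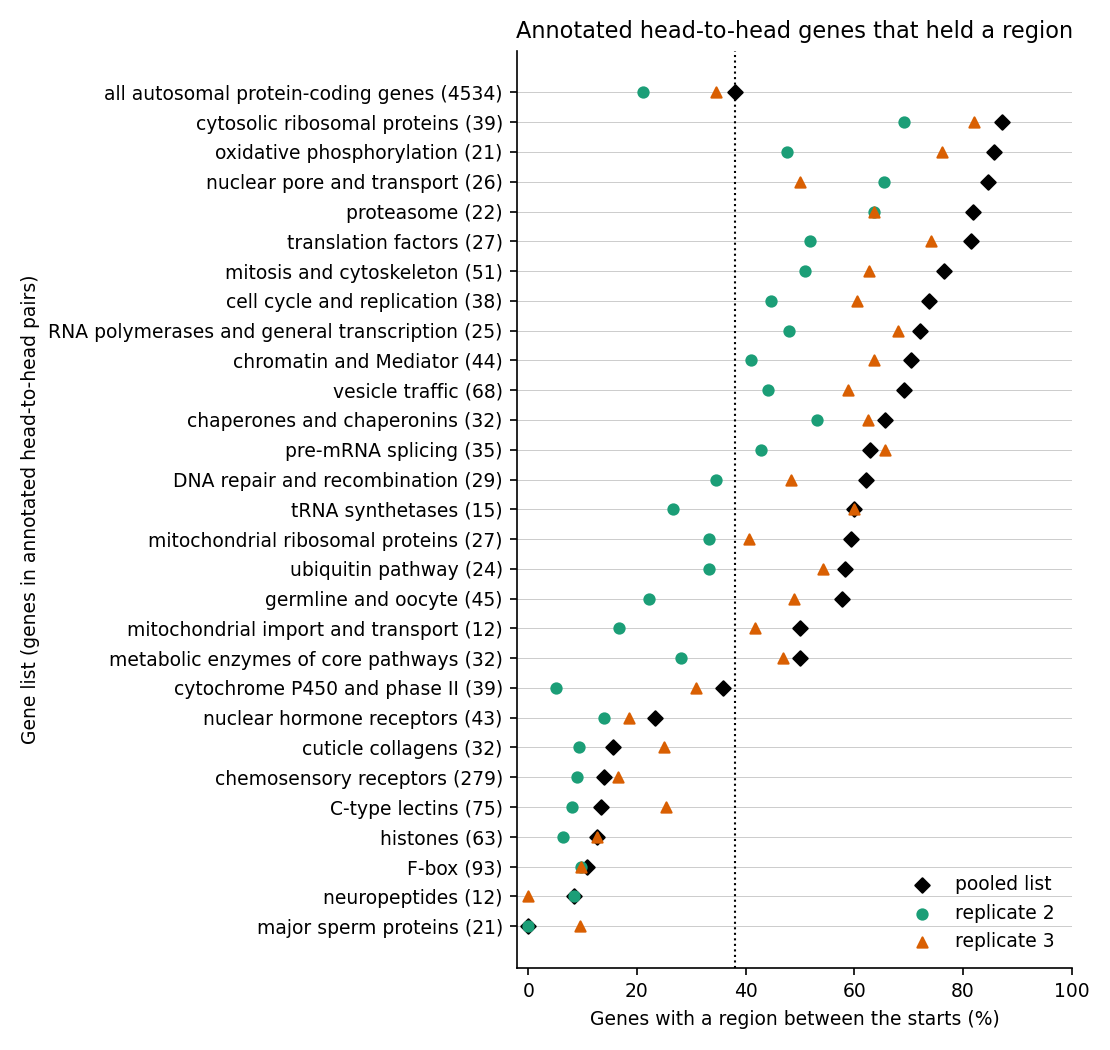
Share of genes in annotated head-to-head pairs with a region between the starts (horizontal axis, %), by gene list, for lists with at least 10 such genes (number in brackets), in the pooled list and in each replicate list; the dotted line marks the 38% of all genes in the pooled list. Ribosomal protein genes reach 87.2% and major sperm protein genes 0% in the pooled list.

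The signal of each list was read separately from its share of occupied pairs. The median of each gene's highest member was 7.32 over all 2094 genes, and 4.49% of them had a thresholded member. Ribosomal protein genes had a median of 12.5, and 8 of 38 (21.1%) were thresholded: rps-3A, rpl-18A, rpl-15, rps-19 (27.8), rps-20 (24.5), rpl-31 (24.4), rpl-12 (23.5) and rps-15 (23.1). Among ribosomal protein genes with one-direction regions only, 8 of 28 (28.6%) were thresholded, against 49 of 4787 (1.02%) of all such autosomal genes. A high share was thus seen in both arrangements. Head-to-head ribosomal regions among the strongest 342 of a replicate list served 7 ribosomal protein genes in replicate 2 and 5 in replicate 3, out of 104 and 80 genes of any kind.

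Translation factors had a median of 11.3 with 1 of 24 thresholded, proteasome genes 10.6 with 0 of 20, and DNA repair genes 10.3 with 0 of 24. Chaperone genes had 9.86 with 4 of 26: cct-8, hsp-60, and the chaperonin subunits cct-5 (23.6) and cct-7 (23.2). Chromatin and Mediator genes had 8.19 with 6 of 36: set-16, lin-53, mrg-1, mdt-26, epc-1 (25.2), the enhancer of polycomb homologue, and lin-54 (23.5), a subunit of the DREAM complex that shares its region with rpl-12. Germline genes had 8.29 with 3 of 36: the germ granule helicase glh-2 (24.8), the oocyte RNA-binding protein gene mex-1 (24.4) and hrde-1 (23.8). The signal did not rank the lists as their shares did: oxidative phosphorylation genes had 8.57 with 2 of 20 thresholded, the 7 vacuolar ATPase genes, all in occupied pairs, had 6.54, and the 5 cuticle collagen genes had 7.9. Chemosensory receptor genes had 4.83 with 0 of 45, and their highest, srh-89, had 13.4. Each region counted for both genes of its pair, so a list's signal can belong to partner genes. The highest collagen member, 16.6, lay between col-38 and the ribosomal gene rpl-5. The summit of srh-89 lay 850 bp from its start and 238 bp from that of F25E5.1.

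Whether the summit lay closer to the gene of the list than to its partner showed no lean for most lists. It was nearer to the ribosomal protein gene in 17 of 38 and nearer to the chromatin gene in 18 of 36. Genes whose product name mentions mitochondria were the nearer in 52 of 80. For rpl-12 and lin-54 the summit lay 16 bp from the start of rpl-12 and 377 bp from that of lin-54.

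Pairs in which both genes belonged to the same list were few, 28 members with a median of 4.78. Of these 1 (3.57%, near the 3.83% of all members) was thresholded, his-67/his-68, for histones H4 and H2A (27.7). Ribosomal genes rps-14 and rpl-36 shared a region of 10.7. The pair of small heat shock genes hsp-16.2/hsp-16.41, a textbook divergent pair of the worm, had 4.31 and no overlapping region in either replicate. Members whose pair held 0, 1 or 2 genes of any list had medians of 6.23, 7.47 and 7.54, and 2.61%, 5.17% and 4.58% were thresholded.

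Base composition was measured in windows reaching 50 bp to either side of the summit. Members had 38.2% G and C on average, against 35.9% at 300 bp to either side, and one-direction regions had 36.4% against 35.3%. The 47 thresholded members had 48.7% ± 7.59 (SD over regions) against 37%. The 48 thresholded one-direction regions, which played no part in choosing the members, had 46.1% ± 6.54 against 34.3%. Members of lowest signal had 35.5% and those of highest signal 43.2%. High signal thus went with G and C in a narrow stretch around the summit, and the part of base composition in fragment recovery or sequencing was not tested.

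**Figure D5:**
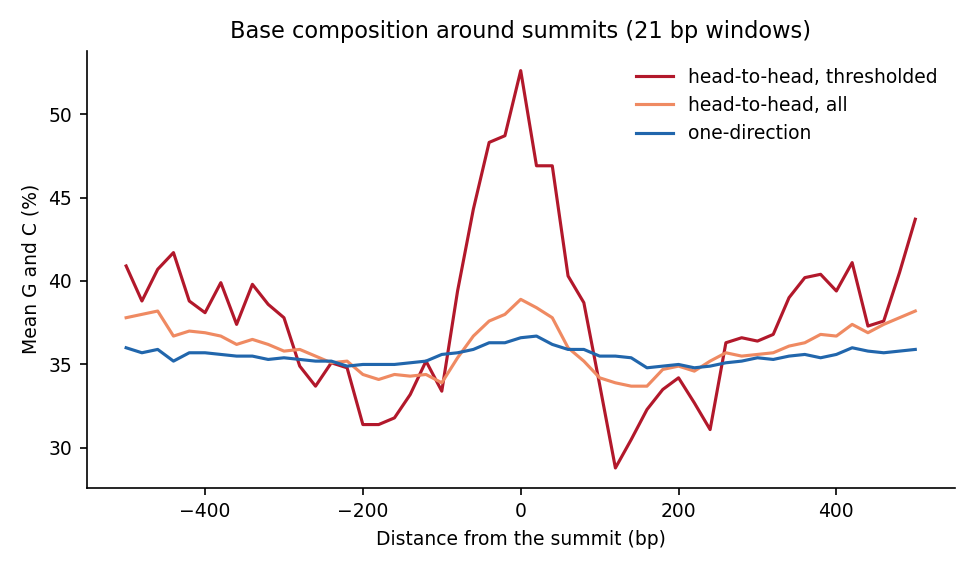
Mean share of G and C (vertical axis, %) in 21 bp windows against distance from the summit (horizontal axis, bp), for thresholded members, all members and one-direction regions. The thresholded members peak at 52.6% at the summit, with 31.4% at 200 bp to the left and 34.2% at 200 bp to the right, while one-direction regions stay near 36%.

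The 6 short motifs were searched on both strands of the same windows: TATAAA (the core of a TATA box), TTTCAG (the splice acceptor), GAGAGA (a purine repeat) and, as the site of GATA factors, GATAAG, further CACGTG (an E-box) and GGGCGG (a GC box). TATAAA was present in 9.94% of members, 11.9% of the flanks at 300 bp and 0 of 47 thresholded members, against 19.6% of windows of the same length directly before all autosomal protein-coding starts. TTTCAG was in 19.1% of members and 6.38% of thresholded ones, against 27% before all starts and 25.2% in the flanks. The thresholded members' own flanks had TATAAA in 8.51% and TTTCAG in 27.7%. GAGAGA was in 9.21% of members, against 8.95% before all starts and 5.7% in the flanks. It was in 19.1% of thresholded members (9 of 47), against 9.57% in their own flanks. GGGCGG was in 3.91% of members and 8.51% of thresholded ones (4 of 47), against 3.39% before all starts. All one-direction regions had TATAAA in 11.9%, TTTCAG in 18.7%, GAGAGA in 8.91% and GGGCGG in 2.92%. Thresholded one-direction regions had TATAAA in 4.17%, TTTCAG in 8.33%, GAGAGA in 12.5% and GGGCGG in 10.4%. GATAAG was in 3.67% and CACGTG in 1.79% of members, against 3.75% and 1.79% in the flanks and 7.38% and 2.6% before all starts. A match describes the letters and does not show that a factor bound there, and shares among 47 regions carry wide counting error. Windows before all starts averaged 32.8% G and C, and the part of base composition in these motif shares was not tested.

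The 52 members whose farther start was at most 50 bp inside the limit of 1000 bp had a median signal of 5.16, and the 55 regions left out by at most 50 bp had 5.49. The 9 members whose nearest short non-coding gene was at most 100 bp beyond the limit of 500 bp had 9.6, and the 6 regions left out by at most 100 bp had 5.57.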

How the data were processed

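LSY-27 ChIP-seq lists of 2 biological replicates were used: 1 relaxed list per replicate, 1 relaxed list pooled by the authors and 1 thresholded list, all deposited on ce11. Signal is the deposited value of column 7 and was used unchanged to describe, rank and filter regions within a list. The deposited −log10 q-value was read but carries no result, and the deposited summit offset gave positions. Not given in the sources used here are the aligner, the caller and its thresholds, the signal's scaling and the read depth. The control was not analysed here.

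Genes came from the RefSeq annotation of WBcel235 (19983 protein-coding genes), and sequences from that assembly. Region classes, overlaps of at least 1 bp, medians and exact Clopper-Pearson intervals at 95% confidence were computed with Python 3.11.15, numpy 2.4.6 and scipy 1.17.1, and plots with matplotlib 3.10.9. The class rule was checked against a direct search. No significance test was made, since the samples form 1 group. The text names the 15 members of highest pooled signal that were thresholded and overlapped both replicate lists, and up to 3 genes per list with a thresholded member or else 1 gene; the further genes named were chosen after their values were seen. The members and lists were chosen with earlier results of these data known. Windows, the list of short genes, start definitions, overlap limits and replicates were varied, as given in the closing section.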

Additional observations from a re-analysis of the deposited data

How the results depend on the processing

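Asking for a start within 500 bp upstream left 655 members, a signal ratio to one-direction regions of 1.45 and a median place of 0.517 of the way from the leftward to the rightward start (0.495 as reported). Regions at or above the pooled list's median signal gave a ratio of 1.3. A window of 100 bp to either side of the summit reduced the excess of G and C at members' summits over 300 bp away from 2.34 to 1.06 percentage points. With either replicate's list alone, the number of members ran from 656 to 1132, the share thresholded or among the strongest 342 from 3.62 to 7.93%, the ratio from 1.29 to 1.32, the place from 0.489 to 0.514, the G and C excess from 2.27 to 2.41 points and the difference in start distance from -165 to 10 bp. The replicate 2 list holds 12414 regions and the replicate 3 list 29326, against 30000 in the pooled list. By construction, the strongest 342 made up 2.75% of the replicate 2 list and 1.17% of the replicate 3 list. For the other shifts the cause was not tested. Keeping regions near short non-coding genes gave 1289 members and using the 5′ ends of every mRNA gave 1295, with ratios of 1.33 in both. Overlap of at least 1 bp with a thresholded region, and the start distance and G and C values of single replicates, were added after seeing the data; the former gave 4.07% thresholded. The stronger part of the thresholded list alone gave 1.55%. No paired analysis was possible because the samples form a single group. Read depth is unknown, so no limit of detection can be given.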

Other observations

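All 2080 6-base words, counted with their reverse complements, were compared in the summit windows of the 307 members of highest and the 307 of lowest signal. The 5 with the widest excess in the strongest members were chosen after their values were seen. Words of A and T differed as widely the other way: AAAATT was in 33.2% of the strongest and 47.9% of the weakest members. The word ACCGTA, on either strand, was in 16% of the strongest and 3.26% of the weakest members. It was in 13 of 47 thresholded members (27.7%, exact interval 15.6 to 42.6%). All 47 are among the strongest members used to choose the word, and the interval covers counting error only. In regions that had no part in the choice, ACCGTA was in 7 of 48 thresholded one-direction regions (14.6%, interval 6.07 to 27.8%) and 3.82% of the 5813 others. In the replicate lists it was in 21.2% of the head-to-head regions among the strongest 342 and 6.46% of the others for replicate 2, and in 29.3% and 7.7% for replicate 3. CGAGAC had the widest excess, in 16.6% of the strongest and 3.26% of the weakest members, but separated less in the replicate lists. For replicate 2 it was in 9.62% (interval 3.2 to 21%) of the head-to-head regions among the strongest 342 and 5.96% of the others. For replicate 3 the shares were 9.76% (2.72 to 23.1%) and 7.24%. Among one-direction regions CGAGAC was in 18.8% of thresholded and 4.68% of other regions. The replicate lists share libraries with the pooled list.

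The 4 words other than ACCGTA hold more G and C. The richest of them, GCGCGC, was in 13.4% of the strongest and 1.63% of the weakest members, and in 20.8% of thresholded and 1.91% of other one-direction regions. The words follow the rise of G and C with signal, and the part of base composition in these shares was not tested.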
